A study of Mus musculus with 36 samples.

Results

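The BCL2 family decides whether a cell keeps or loses the integrity of its mitochondria, and 9 of its genes were followed across replication timing maps of mouse cells. The genes were Bcl2, Bcl2l1, Mcl1, Bcl2l11, Pmaip1, Bbc3, Bid, Bax and Bak1, chosen by name as family members and placed by the domain that covers the start of each gene on its own strand in the mm9 genome. They were 9 of 22350 protein-coding genes, each of which had a replication state in all 3 maps.

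In Repli-seq, replicating DNA is labelled with BrdU, cells are sorted into early and late S phase, and early reads over late reads, as a log2 ratio along the genome, give the replication timing (RT). The study made 36 libraries in 7 groups to ask how RIF1 and the MCM replicative helicase shape early replication in B cells, and deposited maps that cut the genome into domains called early (E), middle (M) or late (L). Of these groups, 8 libraries in 2 groups stand behind the maps used, with 2 replicates of an early and a late fraction in each group. The other 5 groups, with Rif1 deletion or MCM6 depletion, were not analysed here.

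The first map came from CH12, a line grown from a mouse B lymphoma (clone F3), with Rif1 intact. These cells carried a lentiviral shRNA against LacZ (shLacZ), a control for infection, and were selected in puromycin. Per the study's methods, replicates of every sequencing experiment came from separately thawed vials of CH12 cells. The methods also describe technical samples sorted for each fraction. The labels alone do not state which kind a replicate is, and the map describes 1 line. The second map came from WT primary B cells, which were Rif1+/+, were taken from the spleens of C57BL/6 mice and were activated in culture. The labels give 1 culture text, with IL4, CD40 and TGF beta, to both cell types, and the age and number of the mice are not given in the sources used here. The third map is named for mouse embryonic fibroblasts (MEFs). The labels tie it to no sample, and a difference between it and the B cell maps cannot be told apart from its separate origin.

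Each map holds 1 state for each stretch of genome and was made from merged replicates. A state, a length or a distance therefore has no replicate error and no difference between maps could be tested, and the depth behind each map and the RT value at each gene are unknown here. Bins were 20 kb wide and the RT values were smoothed over 300 kb before the states were called, which limits how exactly a domain edge is placed. The maps held 2625 (CH12), 2661 (primary B) and 2151 (MEF) domains, and in each of them E and L domains touched in 0 places. Starts of 6 B cell marker genes were E at 5 in CH12, 6 in primary B cells and 4 in the map named for MEFs. Starts of 7 fibroblast marker genes were E at 2, 2 and 6. These are states of DNA, not levels of RNA.

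Cell death through mitochondria is set by contacts between 3 kinds of BCL2 family protein. Pro-survival members (BCL2, BCL-XL from Bcl2l1, MCL1) bind and restrain the others. BH3-only members sense stress and engage the pro-survival proteins, and the effectors BAX and BAK form pores in the outer mitochondrial membrane. Lymphocytes depend on this balance throughout their life, and BCL2 is the gene joined to the immunoglobulin heavy chain locus in human follicular lymphoma. Replication timing is known to follow gene density and base composition, with gene-rich DNA replicating early.

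All 9 starts were E in primary B cells, and 7 of 9 were E in CH12 and in the map named for MEFs. The 7 were Bcl2l1, Mcl1, Bcl2l11, Bbc3, Bid, Bax and Bak1, the same genes in both maps, and they were thus E in all 3. Bcl2 and Pmaip1 were M in CH12, E in primary B cells and M in the map named for MEFs. As background, 50.6% of all protein-coding starts were E in CH12 and 58.0% in primary B cells. In the map named for MEFs 58.6% were E, and 43.9% were E in all 3. The members' shares (77.8%, 100.0%, 77.8% and 77.8%) lay above the background, with 1 gene standing for 11.1%. The list was chosen with earlier results of these data known, so this excess is a description only. No member started in an L domain in any map (0 of 9), while 24.0% of all starts were L in at least 1 map.

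**Figure D1:**
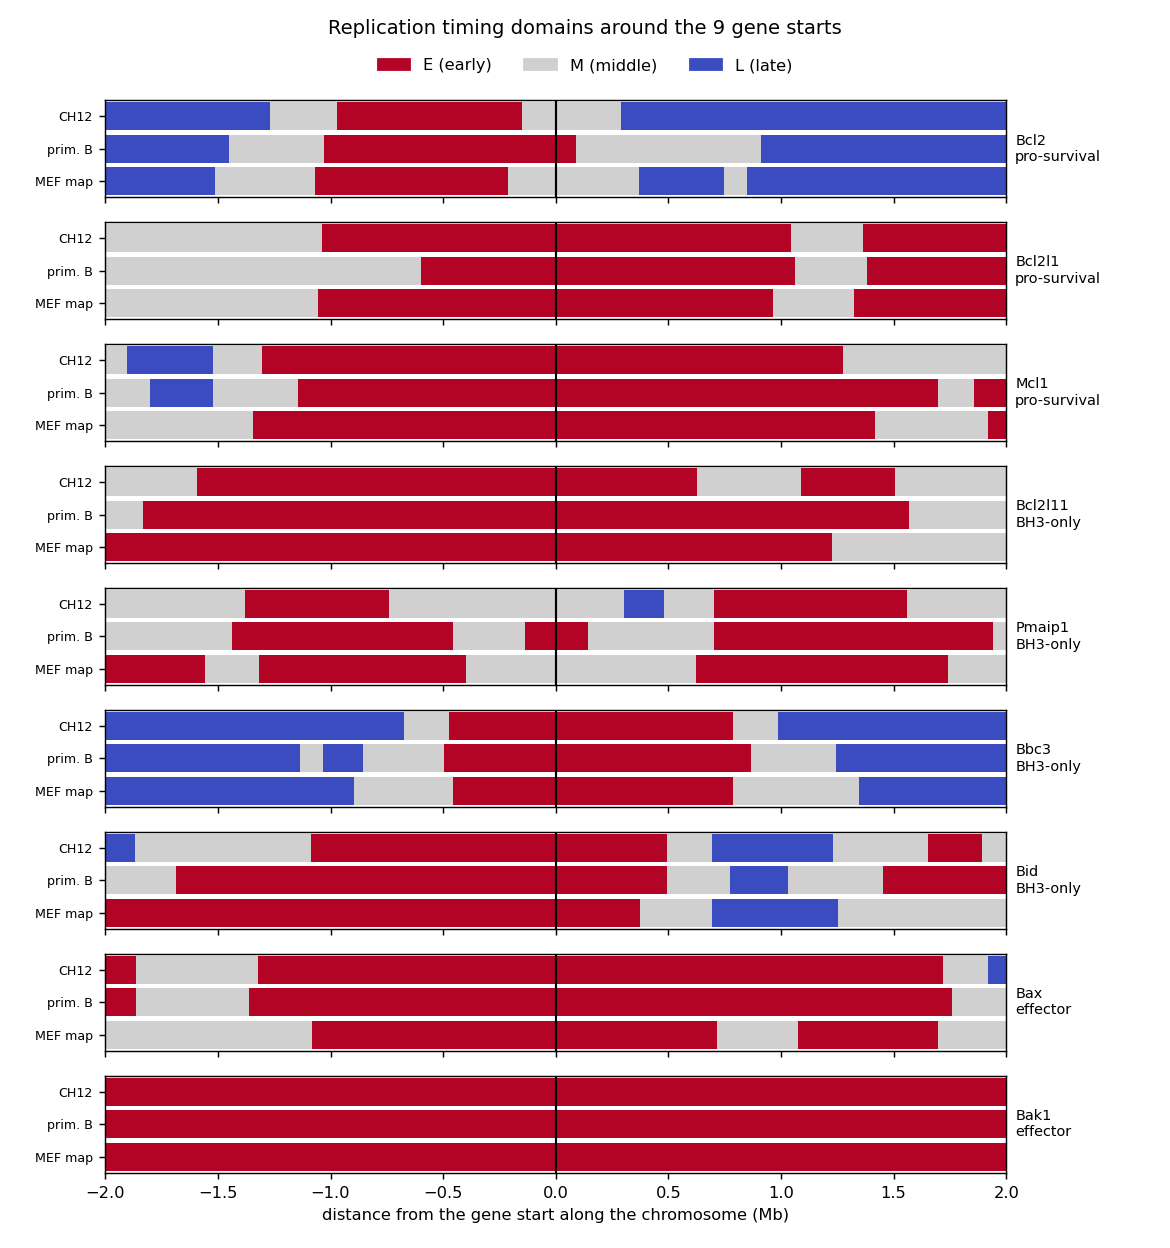
Domains within 2 Mb of each of the 9 gene starts (horizontal axis, Mb along the chromosome, start at 0), with 1 bar for each of the 3 maps and E in red, M in grey and L in blue. The starts of Bcl2 and Pmaip1 lie in red in primary B cells only, and the other 7 lie in red in every bar.

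Between the 2 B cell maps, 2 of 9 members had an earlier start state in primary B cells than in CH12 (22.2%), beside 18.8% of all protein-coding starts. None (0 of 9) started later, where 2.75% of all starts did. Against the map named for MEFs, the same 2 members were earlier in primary B cells, beside 11.8% of all starts, and 0 were later, beside 13.2%. CH12 and the map named for MEFs gave every member the same state, although 29.9% of all starts differed between these maps. The combination of M, E and M seen at Bcl2 and Pmaip1 was carried by 760 starts genome-wide, or 3.40%. The share of members earlier in primary B cells than in CH12 was near the background share and says nothing particular about the family. States were called within each map from its own RT values, so the same state need not mean the same RT across maps. E domains covered 737680 kb in primary B cells and 599640 kb in CH12. The study describes relatively fewer early-replicating domains in WT primary B cells than in shLacZ CH12 cells. Whether Bcl2 and Pmaip1 replicated earlier in primary B cells was not tested.

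Bcl2, the founding pro-survival gene, lay closest to a domain edge of the 9 members in each map. The gene spans chr1:108434755-108610851 (mm9) on the minus strand. Its start was M in CH12, in a domain of 440 kb, 150.8 kb from the E domain on one side and 289.1 kb from an L domain on the other. In primary B cells the start was E, in a domain of 1120 kb, and lay 89.1 kb inside its edge with M. In the map named for MEFs it was M again, in a domain of 580 kb, 210.8 kb from E and 369.1 kb from L. All 3 distances to an edge fell below 300 kb, the smoothing span.

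The maps order the Bcl2 locus in the same way and differ in where the borders fall. In each of them an E domain that begins between positions 107540001 and 107640001 gives way to M and then to L along the chromosome. The E domain ended at position 108460000 in CH12, 108700000 in primary B cells and 108400000 in the map named for MEFs. The border of E thus lay 240 kb farther along in primary B cells than in CH12, and 300 kb farther than in the map named for MEFs. The border between M and L lay at 108900000, 109520000 and 108980000. Beyond it, the L domain was 11060 kb long in CH12 and 10280 kb in primary B cells, and 380 kb long in the map named for MEFs, where a further L domain follows a short M domain.

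The stretch in state M in CH12 but in state E in primary B cells covered 240 kb, or 12 bins, and held 3 protein-coding starts: Bcl2, Kdsr, an enzyme of sphingolipid synthesis, and Vps4b, an ATPase of the ESCRT machinery. The stretch against the map named for MEFs was 300 kb, or 15 bins, with the same 3 starts. Bcl2 itself is long, at 176.1 kb, and reaches across the CH12 border. In CH12, 25.2 kb of its body at the 3' end (14.3%) lay in E and 150.9 kb (85.7%) in M. The whole body was E in primary B cells and the whole body was M in the map named for MEFs. Of the 101 bins within 1 Mb of the start, 41 were E, 24 M and 36 L in CH12, 55 were E, 41 M and 5 L in primary B cells, and 40 were E, 34 M and 27 L in the map named for MEFs. Primary B cells thus had the fewest L bins around Bcl2.

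**Figure D2:**
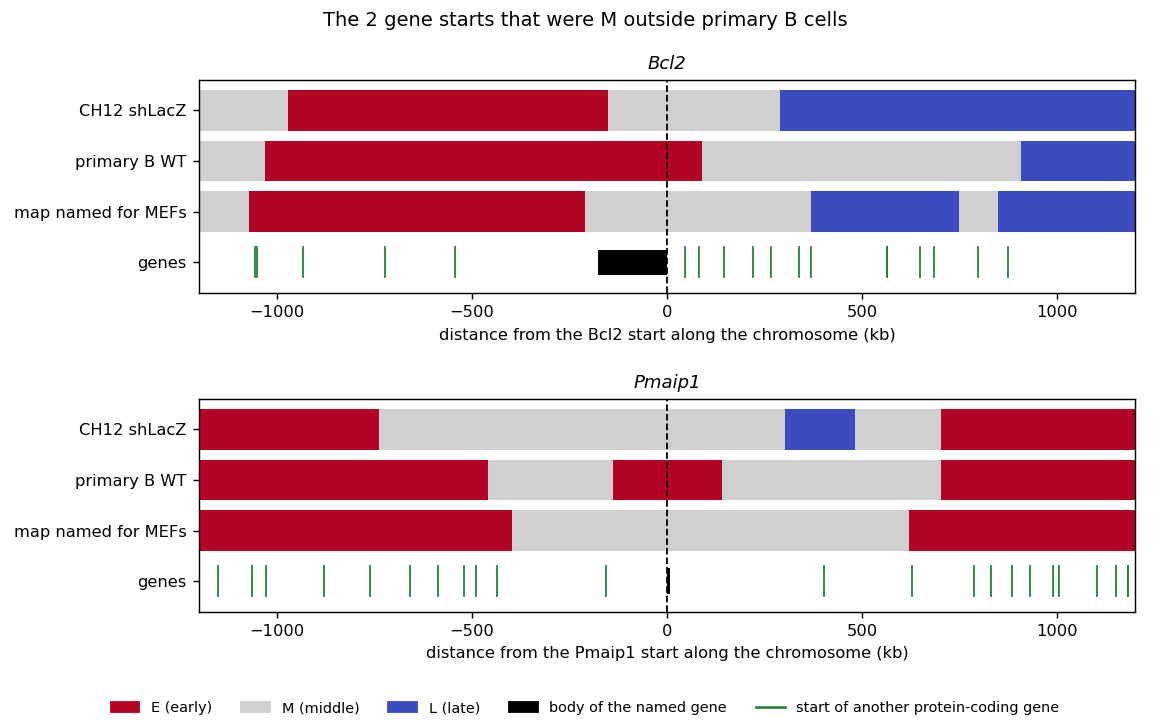
Domains within 1200 kb of the Bcl2 start (top) and the Pmaip1 start (bottom) in the 3 maps, with the gene body in black and the starts of other protein-coding genes as green ticks (horizontal axis, kb along the chromosome). At Bcl2 the E border lies 89.1 kb past the start in primary B cells and before it in both other maps, and at Pmaip1 an E domain of 280 kb stands alone within M in primary B cells.

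The promoter windows of Bcl2, Mcl1 and Bak1 are shown as 1 start that was M outside primary B cells (Bcl2), 1 that was E (Mcl1) and the 1 deepest within E (Bak1), and were picked with their CpG content known. The windows of Bcl2 and Mcl1 hold the start at which the state was read, and the RefSeq start of Bak1 lies 382 bases from it. Each runs 5' to 3' on the gene's strand from 250 bases before to 50 bases after the RefSeq start (GRCm38.p6), matches mm9 at 1 place, and has every CG in capitals. In mm9 the windows lie at chr1:108610818-108611117 (Bcl2, minus strand), chr3:95462393-95462692 (Mcl1, plus strand) and chr17:27165523-27165822 (Bak1, minus strand).
Bcl2: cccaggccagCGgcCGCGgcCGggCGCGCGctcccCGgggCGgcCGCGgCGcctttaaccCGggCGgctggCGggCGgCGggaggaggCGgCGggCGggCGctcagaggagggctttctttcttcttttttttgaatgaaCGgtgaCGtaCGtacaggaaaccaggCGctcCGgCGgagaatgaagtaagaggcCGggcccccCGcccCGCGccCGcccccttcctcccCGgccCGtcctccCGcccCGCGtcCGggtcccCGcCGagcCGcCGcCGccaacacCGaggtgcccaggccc
Mcl1: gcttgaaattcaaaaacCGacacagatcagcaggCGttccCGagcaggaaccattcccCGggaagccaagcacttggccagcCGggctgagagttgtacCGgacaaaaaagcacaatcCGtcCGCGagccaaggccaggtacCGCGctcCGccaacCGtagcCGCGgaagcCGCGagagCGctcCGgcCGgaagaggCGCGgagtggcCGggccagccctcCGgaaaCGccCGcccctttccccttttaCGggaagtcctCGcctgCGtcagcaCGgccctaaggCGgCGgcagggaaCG
Bak1: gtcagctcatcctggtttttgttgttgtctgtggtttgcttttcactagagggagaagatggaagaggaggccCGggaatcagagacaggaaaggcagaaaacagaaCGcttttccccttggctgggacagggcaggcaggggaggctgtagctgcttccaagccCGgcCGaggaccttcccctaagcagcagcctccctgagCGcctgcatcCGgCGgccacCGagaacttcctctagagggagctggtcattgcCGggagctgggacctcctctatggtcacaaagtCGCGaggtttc

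The letters CG, which read the same on both strands and cannot overlap each other, occurred 44 times in the Bcl2 window, 33 times in that of Mcl1 and 11 times in that of Bak1. Among 32841 mouse promoter windows of 300 bases, the median was 7 (quartiles 3 and 20), 94.6% held at least 1, and 2.25% held as many as Bcl2. For Mcl1 this share was 8.56% and for Bak1 41.4%. Windows were matched for 8 of 9 members, all but Pmaip1, and the remaining ones held 27 and 38 (Bcl2l11), 34, 30 and 39 (Bbc3), 22 (Bid), 19 (Bax) and 1, 14 and 22 (Bcl2l1, with 3 RefSeq starts). These counts describe sequence only.

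Bcl2l1 and Mcl1, the other pro-survival genes, sat well inside E domains. Bcl2l1 (chr2:152593052-152657464, minus strand) encodes BCL-XL. Its E domain was 2080 kb in CH12, 1660 kb in primary B cells and 2020 kb in the map named for MEFs, and the start lay 1037.5, 597.5 and 962.5 kb from the nearest edge. The shorter domain in primary B cells came from the left border, which differed by 440 kb between the B cell maps, whereas the right border differed by 20 kb. Mcl1 (chr3:95462643-95467099, plus strand) encodes a short-lived protein that B cells need to survive. Its E domains were 2580, 2840 and 2760 kb long and its start lay 1277.4, 1142.6 and 1342.6 kb from an edge. Mcl1 shared its domain with other genes to give 95, 89 and 96 protein-coding starts in all, and all 101 bins within 1 Mb were E in each map.

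Among the BH3-only genes, Pmaip1 differed between maps and Bcl2l11, Bbc3 and Bid did not. Pmaip1 encodes NOXA, a p53 target that binds MCL1, and lies at chr18:66618258-66625204 on the plus strand. Its start was M in CH12, in a domain of 1040 kb, with an L domain of 180 kb 301.7 kb to the right and E 738.3 kb to the left. In the map named for MEFs it was M in a domain of 1020 kb with E on both sides, 398.3 and 621.7 kb away. In primary B cells the start lay near the middle of an E domain of 280 kb, 138.3 kb from the left edge and 141.7 kb from the right edge, with M domains of 320 and 560 kb around it.

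The E domain at Pmaip1 in primary B cells spanned 14 bins, fell below the 300 kb of the smoothing span, and held Pmaip1 as its 1 protein-coding start. Its length ranked at percentile 1.61 among all starts that were E in that map, where the median was 2100 kb. The same 14 bins were M in both other maps, so the stretch that differed was the whole E domain. At Bcl2 the difference was a shifted border of an E domain that all 3 maps had, and at Pmaip1 it was a domain with no E counterpart in the other maps. The neighbouring starts, Ccbe1 at 155.9 kb and Mc4r at 401.9 kb, lay outside it. Ccbe1 was M in all 3 maps, and Mc4r was L in CH12 and M in the others. Across the 760 genes with the combination M, E and M, the E domain in primary B cells had a median of 720 kb (quartiles 420.0 and 1300.0) and the median start lay 96.2 kb from an edge. The E domain of Bcl2 was longer than this median and that of Pmaip1 was shorter.

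Bcl2l11 encodes BIM, the BH3-only protein that removes self-reactive and cytokine-starved lymphocytes, and lies at chr2:127951774-127988283 on the plus strand. Its E domain was 2220 kb in CH12, 3400 kb in primary B cells and 4380 kb in the map named for MEFs, with the start 628.2, 1568.2 and 1228.2 kb from an edge. Within 500 kb it had the fewest protein-coding starts of the early members, with 7, where the median of all E starts in CH12 was 22. Per Mb of the E domain it had 16.7, 15.6 and 15.1 starts in the 3 maps, and Bid had fewer, with 13.9, 12.4 and 9.72. Bbc3 (chr7:16894965-16903554, plus strand) encodes PUMA, which p53 induces. Its E domain was nearly the same in each map, at 1260, 1360 and 1240 kb, with the start 475.0, 495.0 and 455.0 kb from an edge. Among the 7 early members Bbc3 lay in the shortest E domain in each map, and L domains began 675.0, 855.0 and 895.0 kb away.

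Bid encodes the BH3-only protein that caspase-8 cleaves, linking death receptors to mitochondria, and spans chr6:120841948-120866871 on the minus strand. Its E domain was 1580 kb in CH12, 2180 kb in primary B cells and 4320 kb in the map named for MEFs. The right edge, 493.1 kb from the start in both B cell maps and 373.1 kb in the map named for MEFs, differed by 120 kb, and the left edge by 2860 kb over the 3 maps. L domains began 693.1, 773.1 and 693.1 kb away. Bcl2l13, a family relative, is the nearest neighbour of Bid at 80.6 kb and was E in all 3 maps, so these genes are not independent points.

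The effectors lay in gene-rich E domains, with 44.1 (Bax) and 32 (Bak1) protein-coding starts per Mb in CH12. This was not particular to them, since Mcl1 had 36.8 and Bbc3 31.7. Within 500 kb of its start Bak1 had 18 protein-coding starts, below the median of 22 for all E starts in CH12. Bax (chr7:52717065-52722268, minus strand) had E domains of 3040 kb in CH12, 3120 kb in primary B cells and 1800 kb in the map named for MEFs, with the start 1322.3, 1362.3 and 717.7 kb from an edge. These domains held 134, 137 and 100 protein-coding starts. Bak1 (chr17:27156755-27165954, minus strand) had the longest domains of all members, at 6660, 6700 and 6780 kb with 213, 215 and 215 protein-coding starts, and its start lay 3214.0, 3194.0 and 3254.0 kb from an edge. Those distances ranked at percentiles 99.6, 99.9 and 97.9 among all E starts of the same map. The nearest L domain lay 3686.0 kb away or farther in each map.

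**Figure D3:**
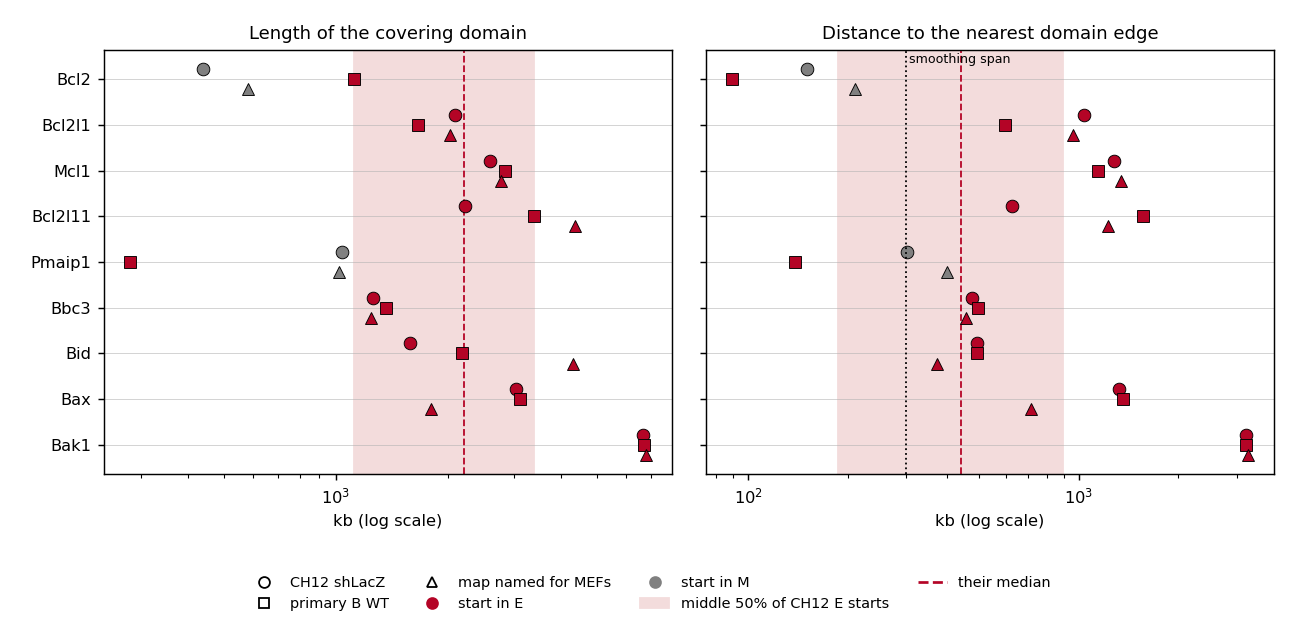
Length of the domain that covers each member's start (left) and distance from the start to the nearest domain edge (right), in kb on log axes, for CH12 (circles), primary B cells (squares) and the map named for MEFs (triangles), with E in red and M in grey. The band and dashed line give the middle 50% and the median of all CH12 starts in E (length 1120.0 to 3400.0 kb, median 2200 kb), and the dotted line is the smoothing span of 300 kb, to the left of which lie Bcl2 in all 3 maps and Pmaip1 in primary B cells.

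The 7 members that were E in all 3 maps were all more than 300 kb from the edges of their domain in every map, with the smallest distance per gene between 373.1 kb (Bid) and 3194.0 kb (Bak1). Of the 9804 genes that were E in all 3 maps, 60.5% met the same limit, and their smallest distance had a median of 407.4 kb (quartiles 176.2 and 821.1). Over all 9 members the median distance was 628.2 kb in CH12, 597.5 kb in primary B cells and 717.7 kb in the map named for MEFs, beside 304.2, 312.8 and 415.0 kb over all protein-coding starts. The median domain length was 2080, 2180 and 2020 kb, beside 1520, 1480 and 2040 kb over all protein-coding starts. Over starts in E alone, the median length was 2200, 2100 and 2660 kb and the median distance 439.6, 436.9 and 565.0 kb. In primary B cells, where all 9 members were E, their median length was near that of E starts. In CH12 and in the map named for MEFs, the members' median also counts Bcl2 and Pmaip1, which started in M. It therefore cannot be set against starts in E alone in these maps.

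How far the E domain around each early member was shared also varied. The stretch that was E in all 3 maps made up 97.9% of the union at Bak1 (6640 of 6780 kb), 91.2% at Bbc3 (1240 of 1360 kb), 79.6% at Mcl1 and 73.6% at Bcl2l1. It made up 57.7% at Bax, 47% at Bcl2l11 and 32.9% at Bid (1460 of 4440 kb). Between CH12 and primary B cells alone, the shares were 98.8% at Bak1, 97.4% at Bax, 92.6% at Bbc3, 80.7% at Mcl1, 78.1% at Bcl2l1, 72.5% at Bid and 65.3% at Bcl2l11. The low shares at Bax and Bid in the comparison of all 3 maps came with the map named for MEFs, whose domain was shorter at Bax and longer at Bid.

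Gene density and GC content, which the choice of members did not use, also differed among them. Gene density also served to check which state was E and which was L, so it is not independent of those names. Bcl2 had 8 protein-coding starts within 500 kb and 42.4% GC within 100 kb, and Pmaip1 had 5 starts and 43.8% GC. Both were near the medians of all M starts in CH12 in GC (43%) and below them in starts (12). The early members ranged from 7 starts at Bcl2l11 to 68 at Bax, which ranked at percentile 99.4 of all genes. Their GC content ranged from 45.1% at Mcl1 to 53% at Bak1, against a median of 46.9% for all E starts in CH12, and that of Bak1 ranked at percentile 99.4. In GC, both Bcl2 and Pmaip1 lay below every early member. In starts, Pmaip1 did and Bcl2 did not, since Bcl2l11 had fewer starts than Bcl2.

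**Figure D4:**
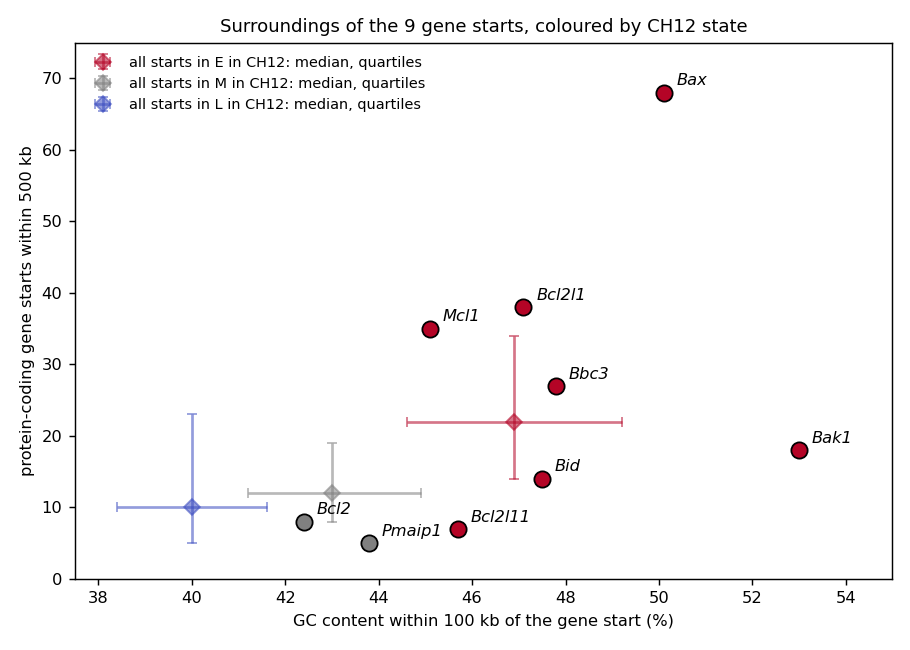
GC content within 100 kb of each member's start (horizontal axis, %) against the number of protein-coding starts within 500 kb (vertical axis), with points coloured by state in CH12 (E red, M grey). Diamonds with bars give the median and quartiles of all starts in E, M and L in CH12, and Bcl2 (42.4%) and Pmaip1 (43.8%) have the lowest GC of the 9 members.

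The other 15 BCL2 family genes gave similar shares of E starts and lay in shorter domains. Of these, 11 started in E in CH12, 12 in primary B cells, 11 in the map named for MEFs and 10 in all 3. The shares were 73.3%, 80%, 73.3% and 66.7%, beside 50.6%, 58.0%, 58.6% and 43.9% of all protein-coding starts. Their domains had a median length of 1020, 1040 and 1100 kb. Between the B cell maps, Bcl2l15 and Bcl2a1d went from M in CH12 to E in primary B cells, and Bcl2a1c from E to M. These were 13.3% earlier and 6.67% later in primary B cells, beside 18.8% and 2.75% of all protein-coding starts. The Bcl2a1c start lay 19.3 kb from an edge in CH12 and 0.747 kb from one in primary B cells, which is less than 1 bin. Bcl2a1d, with M, E and M, shared the combination of Bcl2 and Pmaip1, and was 33.3 kb from an edge in primary B cells. The Bcl2a1 copies are similar in sequence and only unique alignments were kept, so reads from within the copies may be missing. Bcl2a1a, Bcl2a1b and Bcl2a1d lay in 1 M domain of 800 kb in CH12, and Bcl2a1b was L in the map named for MEFs.

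Of 13 apoptosis genes outside the family, 8 started in E in CH12, 11 in primary B cells, 12 in the map named for MEFs and 8 in all 3. The shares were 61.5%, 84.6%, 92.3% and 61.5%, beside 50.6%, 58.0%, 58.6% and 43.9% of all protein-coding starts. Apaf1, the scaffold of the apoptosome, Xiap, an inhibitor of caspases, and Fas, a death receptor, went from M in CH12 to E in primary B cells (3 of 13, or 23.1%), and 0 of 13 went the other way. Over all protein-coding starts, 18.8% were earlier and 2.75% later in primary B cells, so the share of 3 was near the background. The E domains in primary B cells were 300 kb at Apaf1, 360 kb at Xiap and 960 kb at Fas. Apaf1 thus lay, like Pmaip1, in an E domain no longer than the smoothing span. In the map named for MEFs, Apaf1 and Fas were E and Xiap was M. The genes that were M in both B cell maps and E in the map named for MEFs were Cycs, which encodes cytochrome c, and Fadd, the adaptor of death receptors.

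**Figure D5:**
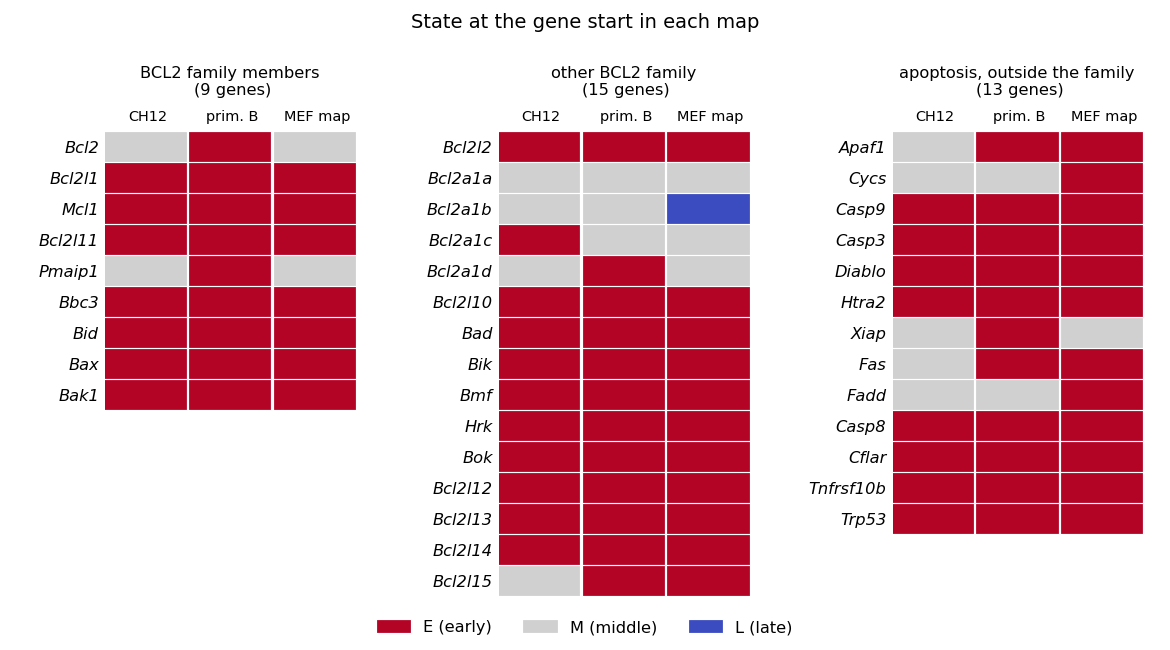
State at the start of each of the 9 members (left), the other 15 BCL2 family genes (middle) and 13 apoptosis genes outside the family (right) in the 3 maps, with E in red, M in grey and L in blue. The 1 blue cell is Bcl2a1b in the map named for MEFs, and the column of primary B cells is red for all 9 members.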

How the data were processed

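Mouse B cells were sorted into early and late S phase for Repli-seq. Per the study's methods, reads were trimmed with Trim Galore 0.6.5 and aligned to mm9 with BWA 0.7.17. Unique alignments were kept with SAMtools 1.9, replicates were merged and duplicates were removed. Early over late reads were expressed as a log2 ratio in windows of 20 kb with deepTools and smoothed by loess over 300 kb, and a hidden Markov model assigned 3 states. The deposited maps list domains by position and a numbered state, without RT values or depth.

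The files do not name the states. Their names were taken as given with the choice of members and were then checked. In each map the state named M separated the other pair. Of the others, the one named E had more protein-coding starts per Mb than the one named L. Domains of all 20 chromosomes ended at the mm9 chromosome lengths. Genes came from GENCODE M1 (37252 genes, 22350 protein-coding) and were placed by their start. A percentile is a mid-rank among protein-coding starts, for lengths and distances those of the same state and map. Promoter windows came from RefSeq (GRCm38.p6) and were located in mm9 by exact match.

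Groups were taken from the sample titles. With 1 map per condition no test was made, and members' counts were set beside the share of all protein-coding starts. The 9 members were all named, and genes of the 2 further lists where their state differed between CH12 and primary B cells, and nearest protein-coding neighbours, among them Bcl2l13, were named by position. Vps4b, Bcl2a1a, Bcl2a1b, Cycs and Fadd were named after their states were seen. In the apoptosis list, 1 further gene is not reported here and was left out of its counts. The members and lists were chosen with earlier results of these data known. Alternatives changed the gene position, short domains and background genes. The latest state over all coding transcript starts was added after seeing the data. Lookups passed 3 of 3 checks on simulated data. Analysis used Python 3.11.15 with numpy 2.4.6 and pandas 2.3.3.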

Additional observations from a re-analysis of the deposited data

How the results depend on the processing

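No paired analysis was possible because replicates had been pooled before states were assigned, and for the same reason no replicate could be left out. Of 409 values computed under alternatives, 378 equalled the main value. A further 8 differed from it but stayed within 1.5 times (counts) or its 95% Wilson interval (shares of all genes), and 23 moved further. Among the 8, the members starting in E were 8 in place of 7 in CH12 at the gene end, and 8 in place of 9 in primary B cells 100 kb upstream. Of 243 member states read at other positions or with short domains left out, 2 differed, both at Bcl2, which became E in CH12 at the gene end and M in primary B cells 100 kb upstream of the start. Most of these states could not have changed. Every member start lay at least 89.1 kb from an edge, so moves of 20 kb could change none. Moves of 100 kb could change only Bcl2 in primary B cells. Coding transcript starts of 1 gene spanned at most 6.22 kb, and no member's domain was under 280 kb. The 2 of 243 thus say little about stability. The 54 lengths and distances were the same with domains joined across up to 40 kb. In each map the shortest domain that covered any protein-coding start was itself 40 kb, so these values could hardly have moved.

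The count of members earlier in primary B cells than in CH12 was 1 (Pmaip1) in place of 2 at the gene end, 100 kb upstream of the start, and with members within 100 kb of an edge left out. Against the map named for MEFs it was 1 (Pmaip1) 100 kb upstream and with members near an edge left out. At the gene end, 1 member (Bcl2) differed between CH12 and the map named for MEFs. The background of E starts with all gene types, autosomes only and 1 gene per 20 kb bin was 44.8%, 51.8% and 47.7% in the CH12 map, 51.7%, 59.2% and 55.2% in the primary B map, 51.8%, 61.1% and 56.1% in the map named for MEFs, and 38.1%, 45.8% and 40.7% in all 3. Starts earlier in primary B cells than in CH12 were 20.2% with all gene types and 19.6% with 1 gene per bin, and later starts were 2.98% with all gene types. The members' shares of E starts lay above each of these values. The list was chosen with earlier results of these data known, so this excess remains a description only.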
